A study of Mus musculus with 13 samples.

Results

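The genes described here encode the nuclear receptor PPARG and the transcription factors that work beside it in fat cells: the C/EBP proteins, the RXR receptors, the liver X receptor LXRA (gene Nr1h3) and the co-regulator TLE3. The rule named 8 genes by symbol, of which 6 have a row among the 11761 listed genes (Pparg, Cebpa, Rxra, Rxrg, Nr1h3 and Tle3), while Cebpb and Cebpd were not analysed here. RNA came from epididymal white fat of Adipoq-NuTRAP mice on the C57BL/6J background, in which the Adipoq promoter, active in adipocytes, switches on a GFP-tagged ribosomal protein. The groups were mice kept on chow and mice given a high-fat diet (HFD), in each case for 10 weeks, and all of them carried the reporter. Homogenised fat was incubated with anti-GFP to capture these ribosomes and their bound RNA, and 3 libraries per diet were sequenced. No source used here gives the animals' age, whether animals were pooled, or whether replicates were separate animals. The p-values therefore speak of library-to-library spread, part of which may be technical. The 5 H3K27ac and 2 PPARG chromatin samples of the series were not analysed here.

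PPARG is the receptor without which fat cells neither form nor persist. It binds DNA as a heterodimer with an RXR receptor, on direct repeats of a short core sequence, and answers to fatty acid ligands. C/EBPA is induced together with PPARG during differentiation, each sustains the gene of the other, and the proteins share many binding regions near genes of the mature adipocyte. LXRA also pairs with RXR and responds to oxidised sterols. TLE3, a protein of the Groucho family, binds PPARG and assists adipogenic genes while restraining thermogenic ones. The series title names lower PPARG activity in obesity as its subject. Transcript levels of these factors address the supply of their RNA on ribosomes, not the activity of the proteins.

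Effective library size ran from 7420000 reads in chow replicate 3 to 39400000 in HFD replicate 3, and a single read was worth 0.135 CPM (a read count scaled to library size) in the former. Across tested genes, which do not count as replicates, libraries correlated at 0.974 to 0.984 inside a diet and at 0.899 to 0.918 across diets.

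On GRCm38.p6, the assembly that mm10 denotes, the members lie as follows. Pparg spans chromosome 6 from 115360879 to 115490404 and Cebpa chromosome 7 from 35119293 to 35121928. Rxra spans chromosome 2 from 27676445 to 27763319 and Rxrg chromosome 1 from 167598362 to 167639623. Nr1h3 lies on chromosome 2 from 91184061 to 91202829 and Tle3 on chromosome 9 from 61372326 to 61418497. Nr1h3 is the member whose span overlaps other annotated genes (Acp2 and Gm23390, neither of them listed), and since the library kit does not mark strand, reads from shared exons could not be separated. For Pparg, a gene with several promoters, the deposited row gives 1 value for the gene (its transcript identifier is uc009dis.3), so isoforms could not be told apart.

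The promoter windows below are shown because the results turn on these genes, whose products sustain each other's transcription. They hold the 250 bases before an annotated start, from RefSeq on GRCm38.p6, plus strand. Capitals mark every match on either strand to AGGTCA (the receptor core sequence), the DR1 element of PPARG and RXR (that core repeated after 1 spacer base, so it contains the core), TTGCNNAA (a C/EBP-type element), CACGTG (E-box), CCAAT or TATAAA. The Cebpa window covers chr7:35119043-35119292 and the Pparg window chr6:115421816-115422065, the latter before the most downstream of the 3 Pparg starts in the table.
Cebpa promoter: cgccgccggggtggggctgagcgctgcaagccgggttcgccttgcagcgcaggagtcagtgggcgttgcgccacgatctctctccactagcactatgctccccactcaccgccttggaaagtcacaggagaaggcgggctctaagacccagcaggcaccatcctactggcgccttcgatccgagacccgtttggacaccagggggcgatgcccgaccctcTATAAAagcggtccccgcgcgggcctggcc
Pparg promoter, start 3: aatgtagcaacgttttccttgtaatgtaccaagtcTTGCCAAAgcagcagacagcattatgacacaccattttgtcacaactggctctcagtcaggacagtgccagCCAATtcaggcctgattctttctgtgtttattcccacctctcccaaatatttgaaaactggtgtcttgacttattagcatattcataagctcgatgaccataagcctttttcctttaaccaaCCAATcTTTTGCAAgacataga
The Cebpa window held a TATAAA match from -30 to -25 and none of the other motifs. The Pparg window held TTGCNNAA matches from -215 to -208 and from -16 to -9, and CCAAT from -144 to -140 and from -22 to -18. Of 32851 windows of this length, 9.56% held TTGCNNAA, 12.4% TATAAA and 33.8% CCAAT. The receptor core AGGTCA was present before the other 2 Pparg starts (from -28 to -23 and from -9 to -4), at matches from -87 to -82 and from -48 to -43 before the second Rxra start, and before the second Rxrg start (from -88 to -83), against 14% of all windows. The DR1 element was found in 0.0335% of all windows and in none of the members' windows. The windows also differed in composition: GC content was 82.4% before the first Pparg start and 81.2% before the first Rxra start, but 40.8% in the Pparg window printed above and 66.4% in that of Cebpa. A match describes letters in a window, not a bound site.

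Among the 6 factors, Cebpa and Rxra fell in HFD, and Pparg, Rxrg, Nr1h3 and Tle3 did not pass the test. Differences were tested with limma on log2(CPM + 1), over all 11643 genes whose mean reached 1 CPM, and a call is a Benjamini-Hochberg adjusted p under 0.05. In that fit 35.1% of all genes were called, 19.1% higher and 16.0% lower, so 2 of 6 members (33.3%) is close to the background. For 4 of the 6 members the chow and HFD libraries did not overlap, against 50.2% of all genes. The captured RNA pools many cells, so fewer cells of a type and less RNA per cell cannot be told apart. A changed share of RNA carried over from untagged cells cannot be separated either, which holds for each value given here.

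**Figure D1:**
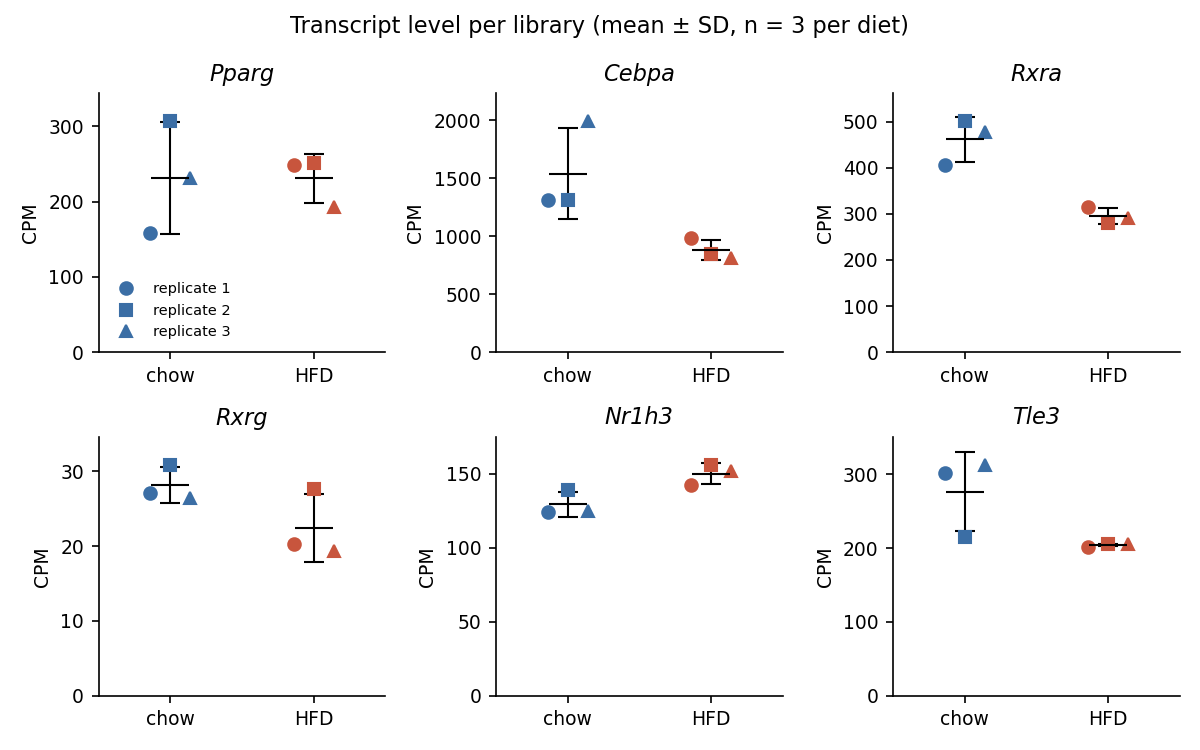
Transcript level (y axis, CPM, starting at 0) of each member in the 3 chow and 3 HFD libraries; points are libraries, with marker shape for the replicate number, and the bar with whiskers is the mean ± SD. Cebpa and Rxra are lower in all HFD libraries, Pparg overlaps between diets, and the 3 HFD libraries of Tle3 nearly coincide, more closely than counting error allows for.

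In chow replicates 1, 2 and 3 the Pparg level was 158, 307 and 231 CPM; in the HFD replicates it was 249, 251 and 193 CPM. The chow libraries enclosed all of the HFD values, with the lowest and the highest level both in chow. The means were 232 ± 74.5 CPM in chow and 231 ± 33.0 CPM in HFD (SD, n = 3 each). The log2 fold change of 0.04 (SE 0.23, limma adjusted p 0.915) had a 95% interval from -0.47 to 0.54, which allows anything from 0.722 times to 1.46 times the chow level. The sign turned to -0.21 without chow replicate 1, the lowest library, and the highest estimate without a library was 0.26. Pparg varied more among chow libraries than most genes did: its SD of 0.48 on the log2 scale exceeded that of 93.3% of the genes averaging 10 CPM or more, and in HFD its SD of 0.22 exceeded that of 73.1%. Counting error was small beside this, since the fewest reads behind a Pparg value were about 1710, a counting interval of about 4.77% either way.

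Cebpa, the gene of the C/EBP factor that completes and maintains the adipocyte state, had chow levels of 1310, 1310 and 1990 CPM and HFD levels of 982, 843 and 815 CPM. All HFD libraries lay below all chow libraries, and chow replicate 3 stood above the other two. The level was 0.583 times that of chow (95% interval 0.433 to 0.783), a log2 fold change of -0.78 (SE 0.19, limma adjusted p 0.0116). This value lay below that of 92.9% of all tested genes. Without chow replicate 3 the log2 fold change was -0.58 (limma adjusted p 0.0117), and the call held without each library in turn (adjusted p 0.011 to 0.0477).

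Rxra encodes the most general partner receptor of PPARG and LXRA. Its chow levels were 407, 501 and 478 CPM and its HFD levels 315, 280 and 292 CPM, again without overlap and with little spread in either diet. The mean went from 462 ± 49.0 to 296 ± 17.8 CPM (SD, n = 3), 0.642 times the chow level (95% interval 0.525 to 0.786). On the log2 scale it fell by 0.64 (SE 0.13, limma adjusted p 0.00489), with a range from -0.73 to -0.58 when each library was left out. Rxrg, the RXR gene of muscle, brain and fat, gave 27.1, 30.9 and 26.4 CPM under chow, against 20.3, 27.7 and 19.3 CPM under HFD. HFD replicate 2 lay within the chow range and the other HFD libraries below it. Its log2 fold change of -0.33 (SE 0.17, limma adjusted p 0.163) had a 95% interval from -0.71 to 0.06. Its counting error was the largest of the members, with about 195 reads in chow replicate 3, a counting interval of about 14.3% either way.

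For Nr1h3 the chow libraries read 124, 139 and 125 CPM and the HFD libraries 142, 156 and 152 CPM. All HFD values were above all chow values, by a small margin, yet the log2 fold change of 0.22 (SE 0.12, limma adjusted p 0.178; 95% interval -0.04 to 0.48) did not pass. The chow libraries of Tle3 read 302, 215 and 313 CPM and its HFD libraries 202, 205 and 205 CPM. Here too the diets did not overlap, with chow replicate 2 just above the HFD libraries. Tle3 differed by -0.42 in log2 (SE 0.16, limma adjusted p 0.063; 95% interval -0.77 to -0.07), and without chow replicate 2 it was -0.59 and passed (adjusted p 0.0118; 0.0118 to 0.912 over all alternatives). The 3 HFD libraries of Tle3 agreed to within a CV of 0.799%, a log2 SD smaller than that of all but 0.503% of the same set of genes, against a CV of 19.4% in chow. The HFD values rest on about 6810, 6560 and 8080 reads, whose counting error alone is larger than that HFD CV. So close an agreement therefore cannot be read as a trait of Tle3.

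The calls depend on what is held constant between libraries. The deposited scaling keeps the bulk of genes near 0 (median log2 fold change -0.004 over all genes), with 54.4% of called genes higher in HFD. Equal totals over the listed genes gave 65.3% higher, and scaling to the median of 12 adipocyte marker genes gave 91.1% higher, with an all-gene median of 0.42. Of these markers 10 are PPARG targets and none is a member. The marker scaling called 4014 of 11643 genes higher and 392 lower, against 2221 and 1863 under the deposited scaling. Under the adipocyte marker scaling Cebpa was at -0.33 (limma adjusted p 0.104) and Rxra at -0.19 (adjusted p 0.429), both below 0 and below the median of all genes but no longer called, while Nr1h3 was at 0.66 and passed (adjusted p 0.0215). Rxrg and Tle3 turned to 0.10 and 0.03, also below that median, and Pparg to 0.48, none of them called. Cebpa, Rxra, Rxrg and Tle3 lay below the all-gene median of each of these scalings. This repeats the main fit and adds no support to it. Equal totals and the marker scaling apply a single factor per library, which moves all genes and their median alike, apart from the pseudocount. Over all 16 alternatives, adjusted p ran from 0.00733 to 0.104 for Cebpa, from 0.00463 to 0.429 for Rxra and from 0.0215 to 0.365 for Nr1h3.

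**Figure D2:**
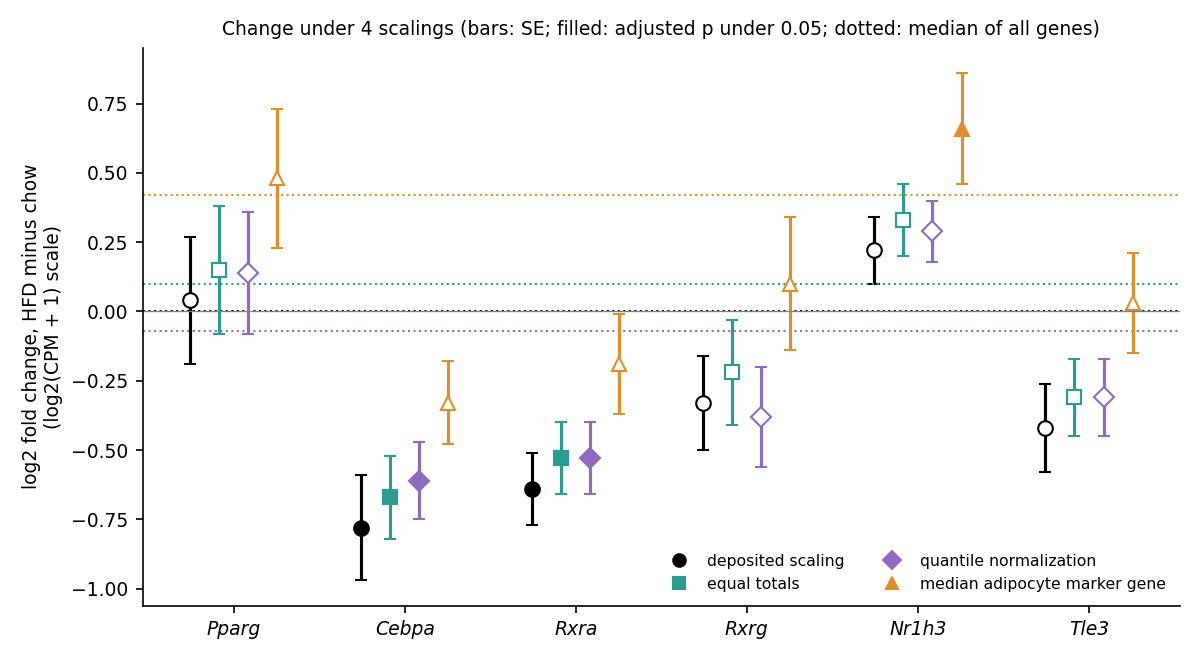
Log2 fold change (y axis, HFD minus chow, log2(CPM + 1)) of each member under the deposited scaling and 3 others; bars are SE, filled markers have an adjusted p under 0.05, and dotted lines give the median of all genes under the same scaling. Cebpa, Rxra, Rxrg and Tle3 lie below the dotted line of the same scaling in all 4 cases. For equal totals and the marker scaling this follows from the deposited scaling, since a factor per library moves genes and line alike. The adipocyte marker scaling moves every member and the median of all genes upwards.

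A scaling factor cancels from the ratio of 2 members within a library, apart from the pseudocount of 1. The log2 ratio of Cebpa to Pparg was 3.04, 2.10 and 3.10 in chow and 1.98, 1.75 and 2.07 in HFD. All HFD libraries were lower, chow replicate 2 by a small margin. The mean difference was -0.82, with an exact two-sided permutation p of 0.1, the smallest that 3 against 3 libraries allow (0.2 adjusted over the 4 pairs). The log2 ratio of Nr1h3 to Rxra was -1.71, -1.84 and -1.92 in chow and -1.14, -0.84 and -0.94 in HFD, a difference of 0.85 without overlap (exact permutation p 0.1, adjusted 0.2). This was the pair with the widest gap relative to its spread, with SDs of 0.11 and 0.16, and the difference lay between 0.79 and 0.94 over 7 alternatives. Rxrg to Rxra differed by 0.31 (exact permutation p 0.2; 0.12 without HFD replicate 2) and Tle3 to Pparg by -0.45 (exact permutation p 0.4), each with overlapping diets.

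**Figure D3:**
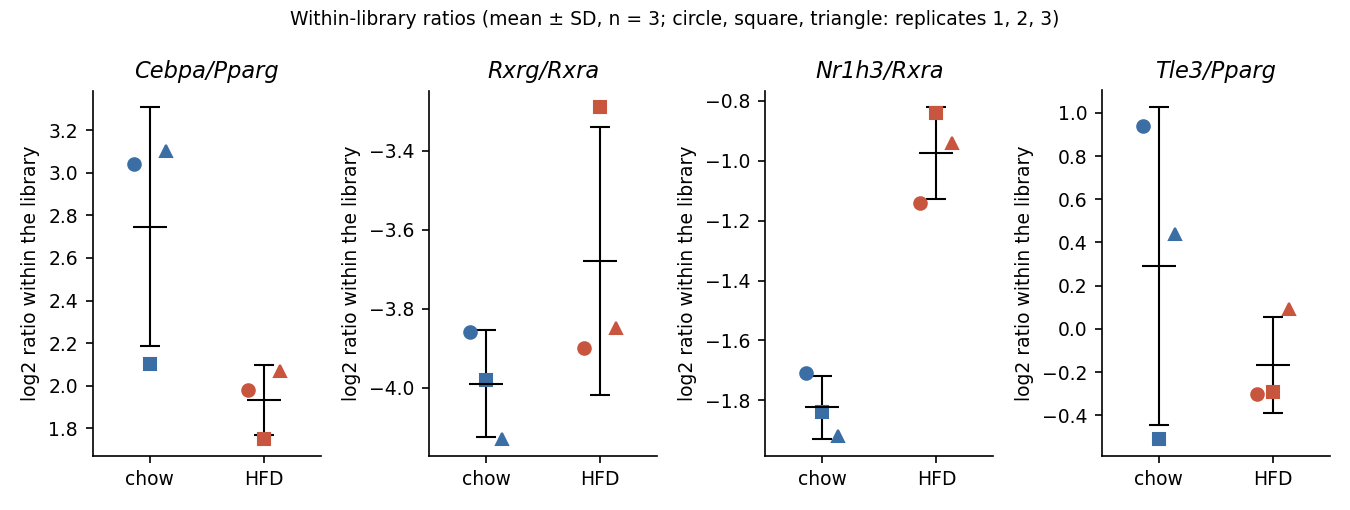
Log2 ratio (y axis, log2(CPM + 1) of the first gene minus that of the second) within each library for 4 pairs of members; points are libraries and bars with whiskers are mean ± SD, and each panel has its own axis, which does not start at 0. The ratio of Nr1h3 to Rxra separates the diets most widely, and that of Tle3 to Pparg overlaps.

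Relatives of the members in the same families went both ways. Cebpg, a C/EBP protein that lacks an activation domain and lies 62727 bases from Cebpa, fell from 253 ± 46.8 to 179 ± 11.9 CPM (log2 fold change -0.48, SE 0.15, limma adjusted p 0.0313). That call was lost without any 1 of the HFD libraries (adjusted p 0.068 to 0.101), in limma without a trend, and under the adipocyte marker scaling (-0.04, adjusted p 0.879). Ddit3, the stress-induced C/EBP relative CHOP, rose from 10.5 ± 3.08 to 31.9 ± 3.10 CPM (1.56, adjusted p 0.000627), though its span overlaps the listed gene Mbd6. Among Groucho relatives, Tle1 fell from 114 ± 7.88 to 69.5 ± 4.53 CPM (-0.70, adjusted p 0.00206; -0.26 and adjusted p 0.336 under the adipocyte marker scaling). Tle4 (0.20, limma adjusted p 0.363) and Aes (0.30, adjusted p 0.103), a short relative without the repeats that bind other factors, did not pass. Both passed under the adipocyte marker scaling, where 4014 of 11643 genes were called higher. Aes also passed with equal totals (limma adjusted p 0.0244) and quantile normalization (adjusted p 0.0348), and 1 of them passed without chow replicate 3.

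Of 9 measured receptors that pair with RXR, counting the third RXR gene Rxrb among them, 1 rose and 2 fell. These shares, 11.1% and 22.2%, stand beside 19.1% higher and 16.0% lower over all genes. Their median log2 fold change was -0.26, against -0.004 over all genes. Under the adipocyte marker scaling 3 rose and 1 fell, with a median of 0.18. Of all 11643 genes 4014 rose and 392 fell under it, with a median of 0.42. Thra, the thyroid hormone receptor gene that overlaps Nr1d1 in antisense orientation, fell from 153 ± 8.54 to 64.1 ± 6.70 CPM (-1.25, SE 0.13, limma adjusted p 0.000117). Among retinoic acid receptors the direction differed by gene: Rara rose from 9.69 ± 2.68 to 23.1 ± 2.45 CPM (1.20, adjusted p 0.00237) and Rarg fell from 28.3 ± 2.93 to 16.4 ± 3.10 CPM (-0.76, adjusted p 0.00883; -0.34 and adjusted p 0.277 under the adipocyte marker scaling), while Rarb differed by 0.48 (adjusted p 0.0961). Rxrb was at 50.9, 51.3 and 65.8 CPM under chow but 47.5, 41.6 and 43.7 CPM under HFD, a difference of -0.32 (limma adjusted p 0.11) with no overlap. The other PPAR genes did not pass: Ppara differed by -0.43 (adjusted p 0.107) and Ppard by 0.23 (adjusted p 0.301). Rarb and Ppard passed under the adipocyte marker scaling, at 0.85 (limma adjusted p 0.0186) and 0.65 (adjusted p 0.0418), and Rarb also in limma without a trend (adjusted p 0.0349). Nr1h2, the gene of the other liver X receptor, differed by -0.26 (adjusted p 0.147) and Thrb by -0.14 (adjusted p 0.58).

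Genes known to act upstream of Pparg and Cebpa in differentiation mostly fell. Of 11 measured inducers 8 fell, 2 rose and 1 did not pass, shares of 72.7% lower and 18.2% higher against 16.0% and 19.1% of all genes, with a median of -0.58. The 8 include Srebf1, which is counted again below among the LXR targets. Its diets overlapped, and its call was lost in 8 of 16 alternatives. Ebf2, an early B-cell factor of the adipocyte lineage whose span overlaps a listed predicted gene, fell from 93.2 ± 5.23 to 22.8 ± 6.87 CPM (-2.03, limma adjusted p 0.000133). Nr3c1, the glucocorticoid receptor gene, fell from 550 ± 45.7 to 316 ± 31.0 CPM (-0.80, adjusted p 0.0017), and Klf15 fell by 0.87 on the log2 scale. Zfp423, a factor of preadipocyte commitment, rose from 59.6 ± 7.40 to 141 ± 11 CPM (1.23, adjusted p 0.000175), and Egr2 (1.83) rose from a chow mean of 0.247 CPM. The count of fallen inducers was 5 without HFD replicate 2 or 3 and 1 under the adipocyte marker scaling, where the 1 was Ebf2 (-1.59). Over all genes 1247, 1162 and 392 fell in the same order, against 1863 in the main fit. Of 6 tested repressors 2 fell and 4 did not pass: Tcf7l2, a Wnt pathway factor, fell by 1.58 and the orphan receptor gene Nr2f2 by 1.39 on the log2 scale.

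Of 27 tested co-regulators, 8 fell, 2 rose and 17 did not pass (median -0.12), shares of 29.6% lower and 7.41% higher against 16.0% and 19.1% of all genes. Ppargc1a and Ppargc1b, coactivators of PPARG that drive mitochondrial genes, fell from 9.30 ± 2.80 to 4.04 ± 0.414 CPM and from 11.1 ± 1.15 to 5.58 ± 0.569 CPM (limma adjusted p 0.0121 and 0.00581). Sirt1, a deacetylase, fell by 0.71 on the log2 scale. Trib2, which targets C/EBPA protein for breakdown, rose by 1.29 from 1.46 ± 0.773 to 5.14 ± 2.41 CPM (limma adjusted p 0.0197), and this call was lost without chow replicate 2 or 3 or HFD replicate 1 or 2, and with quantile normalization (0.71, adjusted p 0.124). The count of fallen co-regulators dropped to 5 when chow replicate 1 was left out and to 4 when totals were made equal. Over all genes 1645 and 1334 fell in these fits, against 1863 in the main fit. Under the adipocyte marker scaling the count of fallen co-regulators was 0, and 3 rose, where 392 of 11643 genes fell and 4014 rose.

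**Figure D4:**
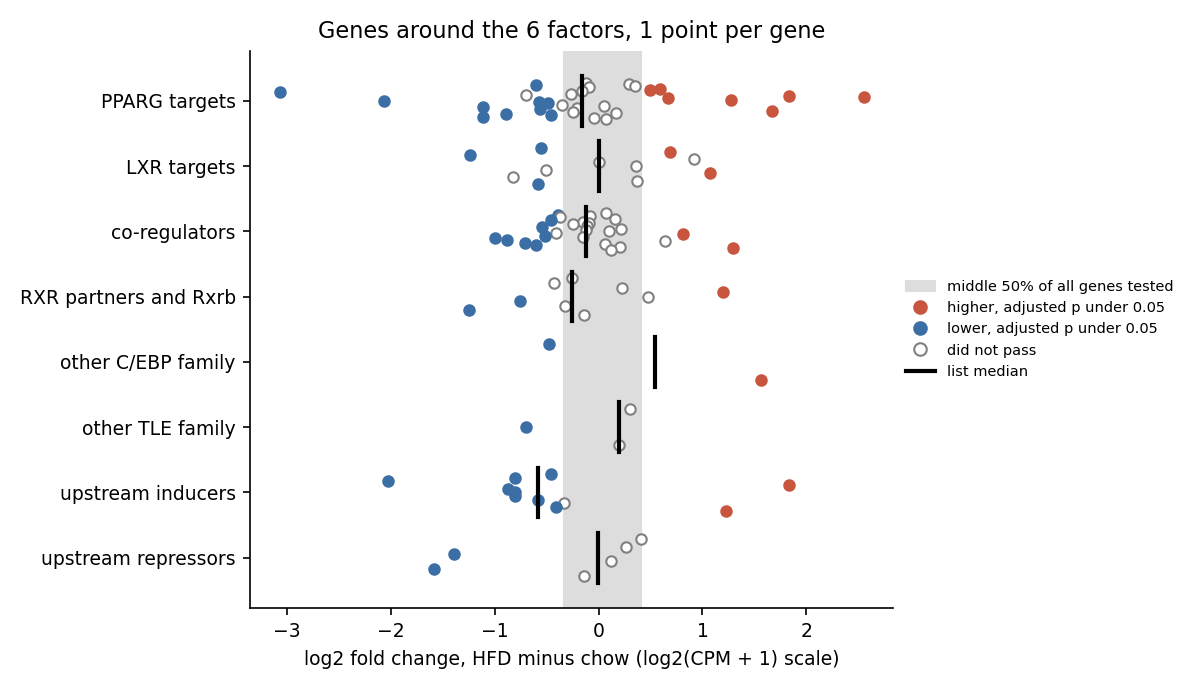
Log2 fold change (x axis, HFD minus chow, log2(CPM + 1)) of each tested gene in 8 lists around the members; 1 point per gene, coloured where called, with the list median as a black bar and the middle 50% of all genes tested as the grey band. The upstream inducers have the lowest median (-0.58), and the PPARG targets reach furthest in both directions.

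Genes known as PPARG targets split. Of 31 measured, 7 rose, 10 fell and 14 did not pass, shares of 22.6% higher and 32.3% lower against 19.1% and 16.0% of all genes, with a median of -0.16. Among those that rose, Plin2, a coat protein of lipid droplets, went from 142 ± 20.5 to 452 ± 31.4 CPM and Fabp5, a fatty acid carrier, from 32.0 ± 2.99 to 117 ± 18.9 CPM. Fgf1, the growth factor gene that PPARG induces in fat on feeding, read 52.3, 51.6 and 52.0 CPM under chow but 226, 326 and 402 CPM under HFD, a log2 fold change of 2.55 (limma adjusted p 2.46e-05). Its span overlaps the listed gene Arhgap26. Gpd1 (log2 fold change 1.27), Gk (0.67) and the glycerol channel gene Aqp7 (0.49) also rose, with limma adjusted p of 0.00153, 0.0121 and 0.019. Pck1, the enzyme gene of glycerol synthesis from pyruvate in the same list, fell, with a log2 fold change of -1.11 (limma adjusted p 0.0166; 0.0657 without HFD replicate 3).

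On the other side, Cfd (adipsin) fell from 3350, 2960 and 5750 CPM under chow to 530, 309 and 588 CPM under HFD. Hcar1, the lactate receptor gene that curbs lipolysis, went from 211 ± 65.5 to 47.9 ± 3.66 CPM (-2.07, limma adjusted p 9.54e-05). Slc27a1, a fatty acid transporter gene, went from 529 ± 173 to 240 ± 49.6 CPM (-1.11, adjusted p 0.00646). Among lipase genes, Pnpla2 fell by 0.89 on the log2 scale, Mgll differed by 0.05 (limma adjusted p 0.802), and Lipe fell by 0.49 (adjusted p 0.0481). The Lipe call was lost in 8 of 16 alternatives (adjusted p up to 0.829), among them those without chow replicate 1 or 3 or HFD replicate 2 or 3. Genes of this list that did not pass included Cd36 (-0.16), Lpl (-0.35) and Slc2a4 (-0.04), the fatty acid translocase, lipoprotein lipase and insulin-responsive glucose transporter. Without HFD replicate 2 the counts were 5 higher and 5 lower (1769 and 1247 over all genes). Without HFD replicate 3 they were 4 and 5 (1683 and 1162 over all genes). The main fit had 2221 and 1863 over all genes. Under the adipocyte marker scaling 11 rose and 5 fell (4014 and 392 over all genes), with a median of 0.28 against 0.42 for all genes. That scaling is set largely by the list itself, since 10 of the 12 markers are among these targets, so these counts are not independent of it.

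**Figure D5:**
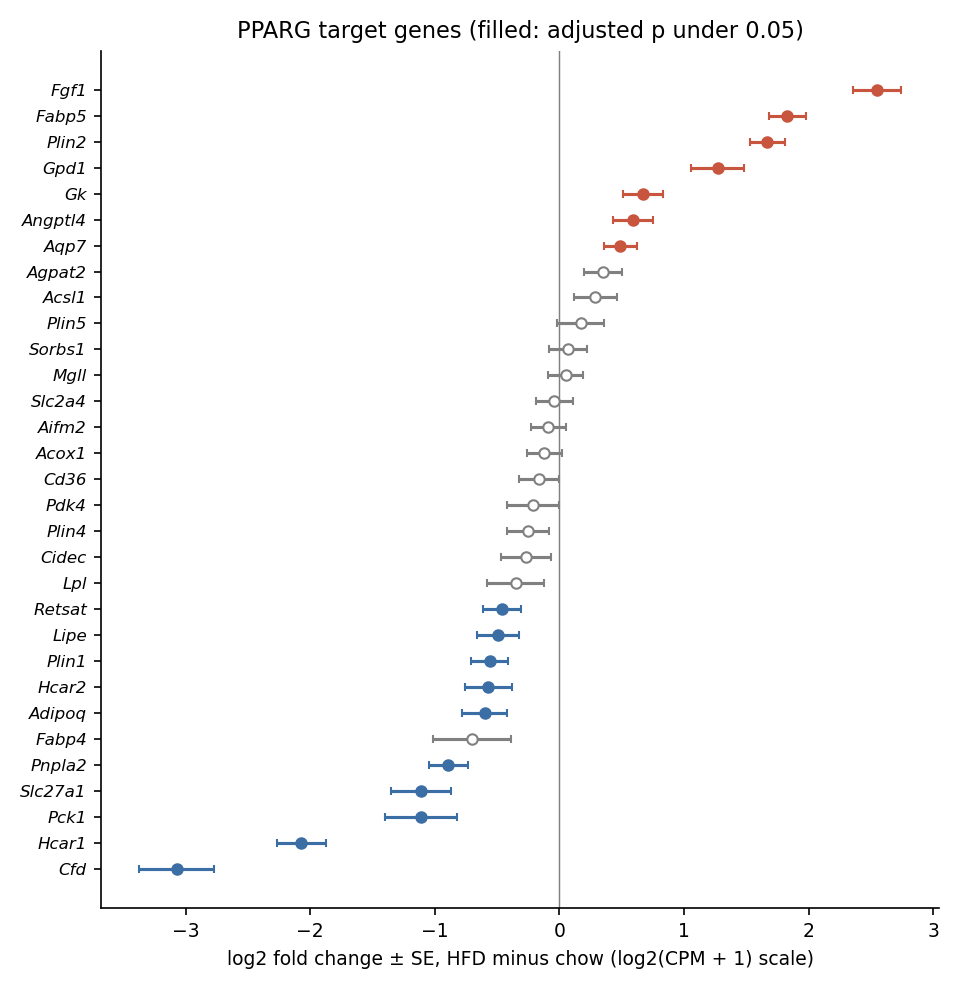
Log2 fold change ± SE (x axis, HFD minus chow, log2(CPM + 1)) of the 31 measured PPARG target genes in order of change; filled points have an adjusted p under 0.05. The list runs from Cfd (-3.07) to Fgf1 (2.55), with 14 genes between or beside the called ones that did not pass.

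LXR targets also moved in both directions beside the level of Nr1h3. Of 11 measured, 2 rose, 3 fell and 6 did not pass, shares of 18.2% higher and 27.3% lower against 19.1% and 16.0% of all genes, with a median of 0.00. Counts of higher and lower targets were 4 and 3 with equal totals (2515 and 1334 over all genes). They were 4 and 2 with quantile normalization (1986 and 2293 over all genes). Under the adipocyte marker scaling they were 5 and 1 (4014 and 392 over all genes), with a median of 0.45 against 0.42 for all genes. The cholesterol exporters went opposite ways: Abcg1 rose from 67.8 ± 9.84 to 110 ± 14.8 CPM (0.69, limma adjusted p 0.00759), and Abca1 fell from 1600 ± 91.2 to 1090 ± 87.1 CPM (-0.55, adjusted p 0.0139; -0.10 and adjusted p 0.653 under the adipocyte marker scaling). Mylip, which degrades the LDL receptor, rose by 1.07 and the apolipoprotein gene Apoe fell by 1.24 on the log2 scale. Srebf1, the lipogenic factor gene, fell by 0.58 (adjusted p 0.0413), a call lost in 8 of the 16 alternatives. Without HFD replicate 2 the count of fallen LXR targets was 1, and over all genes 1247 fell, against 1863 in the main fit.

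Markers of several other cell types of fat were higher in HFD, though not those of every type. Of 15 macrophage markers, 12 rose and 1 (Cd14) fell, shares of 80% and 6.67% against 19.1% and 16.0% of all genes. Their summed level was 155 to 197 CPM in chow and 351 to 527 CPM in HFD. Mertk (-0.28) and Cd163 (0.45), the macrophage receptor genes with the highest chow CPM of that list, did not pass, and Mrc1, with the highest HFD CPM, rose (limma adjusted p 0.000152). Of the 8 endothelial markers, led by Kdr, 7 rose (87.5%), and the 8 summed to 25 to 60.8 CPM in chow and 104 to 222 CPM in HFD. All 6 listed smooth muscle and pericyte markers, led by Acta2, rose, and they summed to 83.4 to 99.2 and 522 to 921 CPM. Tyrobp, a defining macrophage gene, was near the level of single reads in chow (0.0947 to 0.277 CPM) and at 1.96 to 3.58 CPM in HFD. Fibroblast and progenitor markers went both ways (3 of 9 rose and Dcn fell by 1.81 on the log2 scale), and their sums overlapped, at 1810 to 2750 CPM in chow and 1400 to 2880 CPM in HFD. The 12 adipocyte markers summed to 19400 to 30500 CPM in chow and 17400 to 19500 CPM in HFD, with overlap. Without leptin, which rose by 2.17, the other 11 summed to 17900 to 29400 and 12600 to 14100 CPM. Nr1h3, Abcg1, Apoe and Fabp5 are also expressed by macrophages, and the part of these cells in their values was not tested.

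By correlation over the 6 libraries in log2(CPM + 1), among 8731 other genes averaging 10 CPM or more, the genes most like Cebpa were Cstf2t (r = 0.997) and Nudcd3 (0.9965), and those most like Rxra were Htra4 (0.9979) and Smo (0.9956). Rxrg was followed most closely by Aldh1a1 (0.9865) and Nudt5 (0.9853), Nr1h3 by Asna1 (0.9927) and Gspt1 (0.9911), and Tle3 by Kctd18 (0.9963) and Cdadc1 (0.9848). For Pparg the best were Gpx8 (0.9487) and Ifit3 (0.9269). No gene reached r over 0.95 with Pparg, whereas 447 did with Cebpa, 268 with Rxra, 156 with Nr1h3, 30 with Tle3 and 16 with Rxrg. These points share libraries and the 2 diets, so a gene that differs between the diets resembles many others that do. With 6 libraries, the best of 8731 correlations can also be this high by chance, as for Rxrg, which was not called. A link between a member and the genes most like it was not tested.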

How the data were processed

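RNA bound to GFP-tagged adipocyte ribosomes was measured in 3 chow and 3 HFD libraries, prepared after ribosomal RNA depletion by tagmentation, without strand marking, per the labels' protocols. HISAT2, Picard, featureCounts, edgeR and mm10 appear in the submitters' processing notes, as a list; the versions and the role of each were not given in what was used here. The authors deposited log2 CPM per gene (the log base follows from the spacing of low values). These were turned back into CPM, and log2(CPM + 1) was tested with limma 3.58.1 in R 4.3.3 (mean-variance trend, two-sided), for genes whose mean reached 1 CPM. Fold changes on this scale understate the change of low genes. Reads per value were recovered from the steps between low values. Library sizes were chosen so that values below 20 reads lay within 0.1 of a whole read, so this closeness is no check of them. Intervals from the recovered reads cover counting error only. The fit was also run on simulated counts with few, large changes and the same dispersion for every gene. These settings differ from the data, so that run does not vouch for the calls given here.

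The members and gene lists were chosen with earlier results of these data known. Genes were named by a rule: all members, up to 3 called genes in each direction per list, all measured family relatives, the 2 genes most like each member and the gene of each marker list with the highest mean CPM over both diets (Lep for adipocytes, which follows from its HFD level, Col3a1 for fibroblasts, Msln for mesothelium); others named (Pnpla2, Lipe, Gpd1, Gk, Aqp7, Cd36, Lpl, Slc2a4, Pck1, Mgll, Mertk, Cd163, Dcn, Cd14 and Tyrobp) were chosen after their values were seen. Levels were not compared between genes, since transcript lengths were not used here. Of mesothelial markers, 3 of 6 rose (50%, against 19.1% of all genes). Some genes are not reported here. Alternatives were other pseudocounts, filters, scalings and fits, a replicate block and each library left out.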

Additional observations from a re-analysis of the deposited data

How the results depend on the processing

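Of the 6 members, Cebpa and Rxra were called lower in every alternative except the scaling to the median adipocyte marker gene, where 0 members were lower, 1 (Nr1h3) was higher, and 4014 genes were higher and 392 lower, because the median of the 12 markers was lower in HFD. Under it Rxrg (0.10) and Tle3 (0.03) turned sign without a call, both below the all-gene median of 0.42. Their position below that median is carried over from the main fit, since this scaling moves all genes alike. Leaving out 1 library gave 1683 to 2102 higher and 1162 to 1740 lower genes, the lowest without HFD replicate 3, and 2 to 3 lower members. Pparg, called in no alternative, ranged from -0.21 to 0.26 with 1 library left out, and was below 0 without chow replicate 1 (-0.21), HFD replicate 1 (-0.02) or HFD replicate 2 (-0.03). The ratio of Cebpa to Pparg ranged from -1.14 to -0.64 and that of Tle3 to Pparg from -0.85 to -0.13. The labels give the diets the same replicate numbers without saying that these pair animals. Deviations of same-numbered libraries correlated at 0.43, 0.27 and 0.08, against -0.38 to 0.09 for libraries of different numbers. Replicates 1 and 2 thus correlated best with their own number. Chow replicate 3 did no better with its own number (0.08) than with HFD replicate 2 (0.09). Whether the numbers mark pairs is not settled by these values, and the main fit did not use them as pairs. With the replicate block 2594 genes were higher and 2245 lower, and 3 members were lower, Tle3 (-0.42, adjusted p 0.0386) being added. A fit on the recovered reads (limma with voom weights) called 2102 genes higher and 1889 lower, with 2 members lower. Depth limited Rxrg most, at about 195 reads in chow replicate 3. Ratios with Cebpb or Cebpd and levels per transcript length were not run.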
